A study of Arabidopsis thaliana with 3 samples.

Results

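Dehydrins are the group of late embryogenesis abundant (LEA) proteins that carry lysine-rich K-segments. They are very hydrophilic, largely disordered proteins that bind membranes, other proteins or metal ions and protect cells when water is lost. Plants make some of them as the seed dries, under the control of abscisic acid, and others in vegetative tissue under cold or drought, in part through the CBF transcription factors. The genes described here are the members of a list of 10 Arabidopsis thaliana dehydrin loci that have a probe set paired with that locus alone. The list held COR47, ERD10, HIRD11 (AT1G54410), ERD14, AT2G21490, LTI30, XERO1, AT4G38410, AT4G39130 and RAB18. Of these, 6 had such a probe set, out of 13286 loci with one in the whole table, and each of the 6 had 1 probe set. ERD10, ERD14, XERO1 and RAB18 had none in the annotation used and were not analysed here. The probe sets were 259570_at for COR47 (AT1G20440), 262958_at for HIRD11, 263753_at for AT2G21490, 252102_at for LTI30 (AT3G50970), 252988_at for AT4G38410 and 252914_at for AT4G39130.

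Messenger RNA from seed of the Columbia ecotype was measured in 3 states, each on 1 Affymetrix ATH1 array. The first was seed imbibed for 3 days on Murashige and Skoog agar with 10 µM trichostatin A (TSA), which inhibits histone deacetylases, the enzymes that remove acetyl groups from histones. One label field gives this concentration in another unit, and 10 µM is used here because the treated sample's own source label states it. The second was seed imbibed for 3 days on the same medium without TSA, and the third was unimbibed seed, with germination under a 16-hour light period in the growth notes. There were no replicates, so no difference below has a test or a p-value. All signals are MAS5 intensities scaled so that the 3 arrays had the same 2% trimmed mean. Signals under the 40th percentile of all scaled values, 10.7, were raised to that floor before a ratio was taken. "Rose", "fell", "higher" and "lower" as calls are used only of ratios of at least 2-fold, and where only 1 of both signals exceeded the floor the ratio is a bound, written "at least". In whole seed, fewer cells of a type and less RNA per cell cannot be told apart.

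As deposited, the trimmed mean was 44.4 for TSA-treated, 43.4 for untreated imbibed and 26.5 for unimbibed seed, the dimmest array. After scaling, 57.0 to 61.7% of probe sets were above the floor on the 3 arrays. The ratio of 3′ to 5′ signal of the actin control probe sets, a sign of RNA integrity, was 4.31 with TSA, 4.66 without TSA and 1.82 in unimbibed seed, against 1.497, 0.876 and 1.31 for GAPDH and 2.71, 3.17 and 3.87 for ubiquitin in the same order. The 3 controls thus gave no common order of the arrays, and their part in the results was not tested. The log2 ratios of the 18 hybridisation controls had an SD of 0.14 for TSA-treated over untreated seed and of 0.17 for untreated over unimbibed seed. Their mean after scaling was 0.07 in the first comparison but -0.74 in the second. Nearly all of the second offset came in with the scaling on the trimmed mean, by factors of 0.877 for untreated and 1.44 for unimbibed seed. Ratios of different probe sets for the same locus had an SD of 0.38 (49 loci) and 0.75 (41 loci) in the same comparisons. Variation from one batch of seed to another is in none of these SDs. The labelled states were checked against marker lists. Each list held 18 loci, of which 7 and 4 had a probe set of their own. All 7 measured seed storage protein and oil body genes were above the floor in unimbibed seed and fell on imbibition, 3 of them as bounds. Those 3, AT1G03890, AT2G28490 and AT4G36700, exceeded the floor only in unimbibed seed in this comparison and could not have risen. All 4 measured photosynthesis genes rose, PSAN as a bound that could not have fallen, since it was under the floor in unimbibed seed. Over all measured probe sets, 21.1% were at least 2-fold lower and 22.6% at least 2-fold higher in that comparison.

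The dehydrins that changed by 2-fold did so in different directions. AT2G21490, LTI30 and AT4G39130 had their highest signal in unimbibed seed and fell on imbibition, COR47 and HIRD11 were near or under the floor in unimbibed seed and rose, and AT4G38410 was dim in every state. With TSA, COR47, LTI30 and AT2G21490 were higher than without it, and HIRD11, AT4G38410 and AT4G39130 were not changed by 2-fold. Of the 3 higher with TSA, LTI30 and AT2G21490 had fallen on imbibition and COR47 had risen. LTI30 and COR47, both named for their response to low temperature, had opposite imbibition ratios and TSA ratios of like size.

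**Figure D1:**
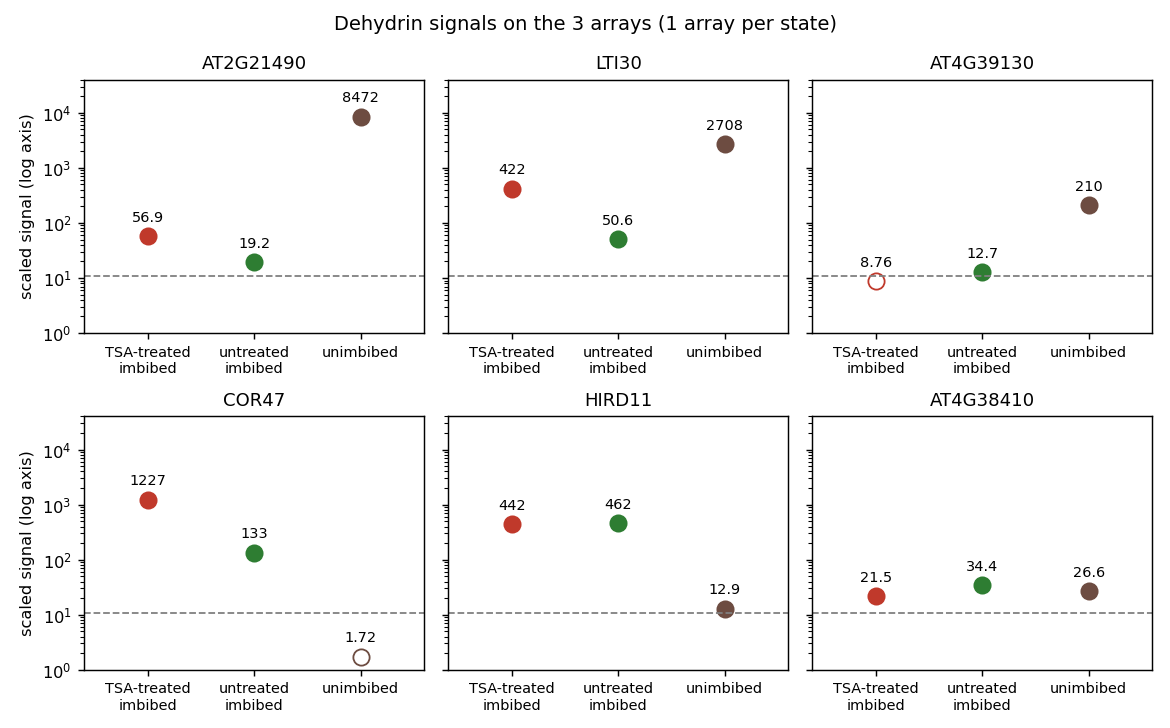
Scaled signal of each measured dehydrin (log axis) on the arrays of TSA-treated imbibed, untreated imbibed and unimbibed seed, 1 point per array, with the floor of 10.7 as a dashed line and signals under it as open points. AT2G21490, LTI30 and AT4G39130 are highest in unimbibed seed, COR47 is highest with TSA, HIRD11 is high in both imbibed states, and AT4G38410 lies between 21.5 and 34.4 throughout.

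The dehydrins during germination without the inhibitor were described by setting untreated imbibed seed against unimbibed seed. Of the 6 measured, 2 rose and 3 fell. Among all 16246 probe sets measured on either array, 22.6% were at least 2-fold higher and 21.1% at least 2-fold lower. The median log2 ratio of the 6 was -1.84, with COR47 at its bound, against 0.01 over all measured probe sets. The individual ratios ran from -8.78 to 5.16, so the median describes none of them well.

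Among the dehydrins stored as messenger RNA in dry seed, AT2G21490, an LEA gene annotated as a dehydrin, had a signal of 19.2 in untreated imbibed seed and 8472 in unimbibed seed. It was 441-fold lower after imbibition (log2 ratio -8.78), and 19 of the 16246 measured probe sets, itself included, had a ratio that low, with bounds counted at the floor. The log2 ratio was -7.79 with quantile normalization and -7.10 with poly-A control scaling. What remained after 3 days was 0.227% of the unimbibed signal and lay within 1.79 times the floor. LTI30 (also XERO2), whose protein is made mainly of repeated K-segments and binds membranes, had a signal of 50.6 in untreated imbibed seed and 2708 in unimbibed seed. It was 53.5-fold lower (log2 ratio -5.74), with 1.87% of the unimbibed signal remaining. AT4G39130, a dehydrin family gene, had 12.7 in untreated imbibed seed and 210.4 in unimbibed seed. It was 16.5-fold lower (log2 ratio -4.05), and its imbibed signal was just above the floor, at 1.18 times it. With poly-A control scaling the log2 ratios were -4.06 for LTI30 and -2.37 for AT4G39130. Each of these falls was larger than the 0.75 SD between probe sets of the same locus.

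The dehydrins that rose differed in how far they could be followed. HIRD11, a small histidine-rich dehydrin that binds metal ions, had a signal of 461.5 in untreated imbibed seed and 12.9 in unimbibed seed. It was 35.7-fold higher (log2 ratio 5.16), and 119 measured probe sets had a ratio at least as high. Its unimbibed signal was 1.20 times the floor, so the ratio rests on a dim signal. COR47, an acidic dehydrin induced by cold, drought and abscisic acid, had 133.1 in untreated imbibed seed and a signal of 1.72, under the floor, in unimbibed seed. It was at least 12.4-fold higher, and the deposited signals before scaling were 151.7 in untreated imbibed and 1.2 in unimbibed seed. AT4G38410 had 34.4 in untreated imbibed seed and 26.6 in unimbibed seed, a log2 ratio of 0.37. That ratio passed 2-fold with unscaled deposited signals (1.08), with scaling on hybridisation controls (1.12) and with scaling on poly-A controls (2.05).

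TSA-treated seed was compared with untreated imbibed seed to address the aim stated in the series title, germination with and without the inhibitor. Of the 6 dehydrins, 3 rose with TSA and 0 fell. Over all 15700 measured probe sets, 10.4% were at least 2-fold higher and 9.51% at least 2-fold lower. The median log2 ratio of the 6 was 0.75, with AT4G39130 at its bound, against -0.02 over all measured probe sets, and the ratios ran from -0.68 to 3.21.

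COR47 had the largest TSA ratio among the dehydrins, with a signal of 1227 in TSA-treated seed and 133.1 in untreated seed. It rose 9.22-fold (log2 ratio 3.21), and 61 of the 15700 measured probe sets had a ratio at least as high. LTI30 followed closely, with 422.3 in TSA-treated seed and 50.6 in untreated seed. It rose 8.34-fold (log2 ratio 3.06), and 75 measured probe sets had a ratio at least as high. The log2 ratios of COR47 and LTI30 lay within 0.38, the SD between probe sets of the same locus, of each other, so their order is not resolved. Signals of both were well above the floor in each imbibed state, at 114.3 and 12.4 times it for COR47 and 39.3 and 4.71 times it for LTI30, with and without TSA.

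AT2G21490 had 56.9 in TSA-treated seed and 19.2 in untreated seed, and rose 2.96-fold (log2 ratio 1.57). Its untreated signal was dim, at 1.79 times the floor. With the floor at the 60th percentile, 22.6, that signal was under the floor and the log2 ratio was a bound, at least 1.33. The ratio of AT2G21490 was smaller than those of COR47 and LTI30, and 706 measured probe sets, 4.50% of them, had a ratio at least as high. HIRD11 had 442.5 in TSA-treated seed and 461.5 in untreated seed, a log2 ratio of -0.06. This difference is smaller than the SD of the hybridisation controls, 0.14, at signals 41.2 and 43.0 times the floor with and without TSA. AT4G38410 had 21.5 in TSA-treated seed and 34.4 in untreated seed, a log2 ratio of -0.68, which became -1.11 and passed 2-fold with poly-A controls set equal. AT4G39130 was under the floor in TSA-treated seed (8.76) and at 12.7 in untreated seed, at least 1.18-fold lower, and with so dim an untreated signal it could not be called lower at 2-fold.

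**Figure D2:**
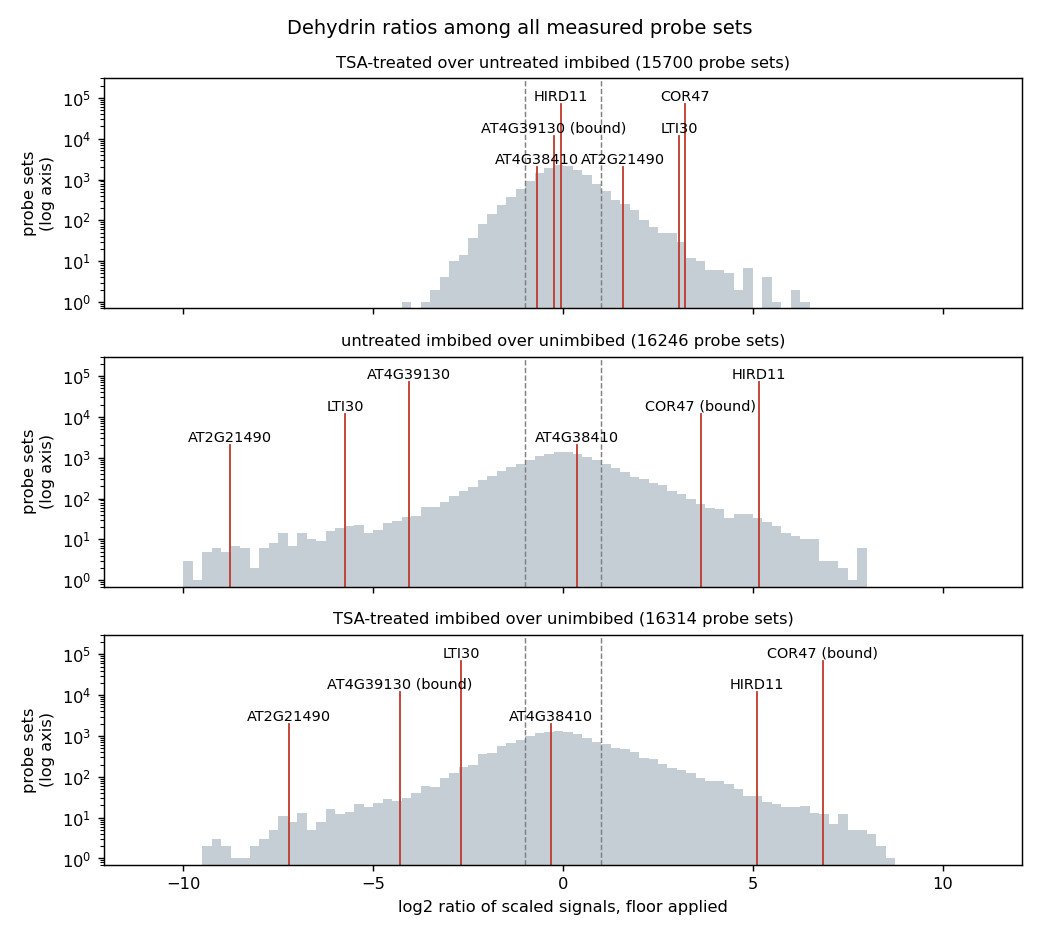
Log2 ratios of the 6 dehydrins (red lines) over the histogram of all measured probe sets (count on a log axis) in the 3 comparisons, with dashed lines at 2-fold. COR47 and LTI30 lie together in the upper tail with TSA, at 3.21 and 3.06, and on opposite sides of the imbibition comparison.

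TSA-treated imbibed seed was also set against unimbibed seed. This comparison shares an array with each of those above. Of the 6 dehydrins, 2 were higher and 3 lower, against 23.3% higher and 23% lower among the 16314 measured probe sets. The median log2 ratio of the 6 was -1.49, with COR47 and AT4G39130 at their bounds, and that of all measured probe sets was -0.07.

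LTI30 held a larger share of its unimbibed signal with TSA than AT2G21490 did. Its signal was 422.3 in TSA-treated seed and 2708 in unimbibed seed, a log2 ratio of -2.68, so TSA-treated seed held 15.6% of the unimbibed signal. That share depends on the scaling, since the log2 ratio was -1.94 with unscaled signals, -2.01 with hybridisation control scaling and -1.43 with poly-A control scaling. AT2G21490 had 56.9 in TSA-treated seed and 8472 in unimbibed seed, a log2 ratio of -7.22, which is 0.672% of the unimbibed signal, and its log2 ratio stayed at or below -5.97 in the alternatives. These log2 ratios differed by more than 0.66, the SD between probe sets of the same locus in this comparison (41 loci). AT4G39130 was at least 19.6-fold lower than in unimbibed seed. COR47 was at least 114-fold higher than in unimbibed seed, and HIRD11 was 34.2-fold higher (log2 ratio 5.10), close to its ratio without TSA. AT4G38410 had a log2 ratio of -0.31, which turned above 0 with signals as deposited (0.43), hybridisation controls (0.37) and poly-A controls (0.94).

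The remaining LEA families were described beside the dehydrins from a list of 39 loci, and 27 of them were paired with an own probe set. With TSA, 8 of the 20 measured rose and 1 fell, against 10.4% higher and 9.51% lower over all measured probe sets. Their median log2 ratio was 0.78, with 5 at a bound, and that of the dehydrins 0.75. The 5 at a bound exceeded the floor only with TSA, so none of them could have fallen. M10 and AT4G36600 were among these 5 and counted as higher. The dehydrin median lies in the gap between HIRD11 at -0.06 and AT2G21490 at 1.57, so it is near neither. With the floor at the 60th percentile the medians were 0.55 for the other LEA genes and 1.33 for the dehydrins. That 1.33 is the bound of AT2G21490, since AT4G39130 was no longer measured. With poly-A control scaling the medians were 0.53 for the other LEA genes and 0.32 for the dehydrins. AT3G02480 had the largest log2 TSA ratio (4.74), followed by AT3G17520 at 2.78. AT3G17520 had 215.2 in TSA-treated seed, 31.2 in untreated seed and 3378 in unimbibed seed. Among the brightest, AT3G15670 had a log2 TSA ratio of 2.50 (5.66-fold). M10 was at least 2.53-fold higher with TSA (log2 ratio at least 1.34). DI21, the 1 member that fell (log2 ratio -1.86), was chosen after its value was seen. On imbibition without TSA, 17 of 22 measured members fell and 3 rose, against 21.1% lower and 22.6% higher over all measured probe sets. Their median was -6.61, with 8 of the 22 at a bound. Among those 8, AT2G03850 exceeded the floor only in imbibed seed, could not have fallen and was not changed by 2-fold. The others were AT2G18340, M17, M10, AT2G42560, AT3G22490, AT4G36600 and AT5G44310. They exceeded the floor only in unimbibed seed in this comparison, so they could not have risen, and they count among those that fell. The 3 that rose were AT2G44060 (log2 ratio 4.65), DI21 (3.15) and AT2G46140 (1.14), named after their values were seen.

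Other genes of the cold and abscisic acid pathways gave few values. Of 24 listed genes of the cold pathway, 3 had a probe set of their own. COR15A, a chloroplast protein of the same cold regulon as COR47, was under the floor in all 3 states, with signals of 8.59 with TSA, 7.11 without TSA and 5.32 in unimbibed seed, and was named after its values were seen. COR15B had 21.6 in TSA-treated seed, 17.02 in untreated seed and 17.2 in unimbibed seed. Its log2 TSA ratio of 0.34 did not reach 2-fold. The zinc finger regulator ZAT10 had 71.6 in TSA-treated seed, 34.2 in untreated seed and 605.1 in unimbibed seed. It rose with TSA by a log2 ratio of 1.06 and fell on imbibition (-4.14). The TSA call of ZAT10 was lost with 75th percentile, hybridisation control and poly-A control scaling. Of the 2 measured, 1 rose and 0 fell with TSA, against 10.4% higher and 9.51% lower over all 15700 measured probe sets. Of 34 listed genes of the abscisic acid pathway, the bZIP factors BZIP53 and EEL were the 2 with an own probe set. BZIP53 rose with TSA (log2 ratio 1.36), EEL had 0.20, and 0 fell, beside the same shares over all probe sets. With 2 measured genes in each list, these counts describe the genes named and not the pathways. The call of BZIP53 was lost with poly-A control scaling and when 3-fold was asked.

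Markers of the seed's stored reserves and of greening moved with the same comparison. The summed signal of the 7 seed storage and oil body genes was 575 in TSA-treated seed, 118.4 in untreated seed and 24401 in unimbibed seed. With TSA 3 of the 6 measured rose and 0 fell, against 10.4% and 9.51% of all measured probe sets. The median log2 ratio was 1.52, with 2 at a bound. Those 2, AT2G28490 and AT4G36700, exceeded the floor only with TSA, so neither could have fallen. The largest log2 ratio was that of the oleosin AT3G01570, at 3.27 (9.65-fold). AT2G28490, at the floor without TSA, was at least 6.32-fold higher (log2 ratio at least 2.66). The vicilin-like PAP85 had a log2 ratio of 2.11. One of the 7 was under the floor with TSA and 3 without it. The summed signal of the 4 photosynthesis genes was 6852 with TSA, 1157 without TSA and 219 in unimbibed seed, where PSAN was under the floor. All 4 rose with TSA, with log2 ratios of 3.23 for LHCB4.2, 3.00 for PSAN, 2.51 for LHCB4.1 and 2.10 for RCA. The part of either group of markers in the dehydrin ratios was not tested.

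**Figure D3:**
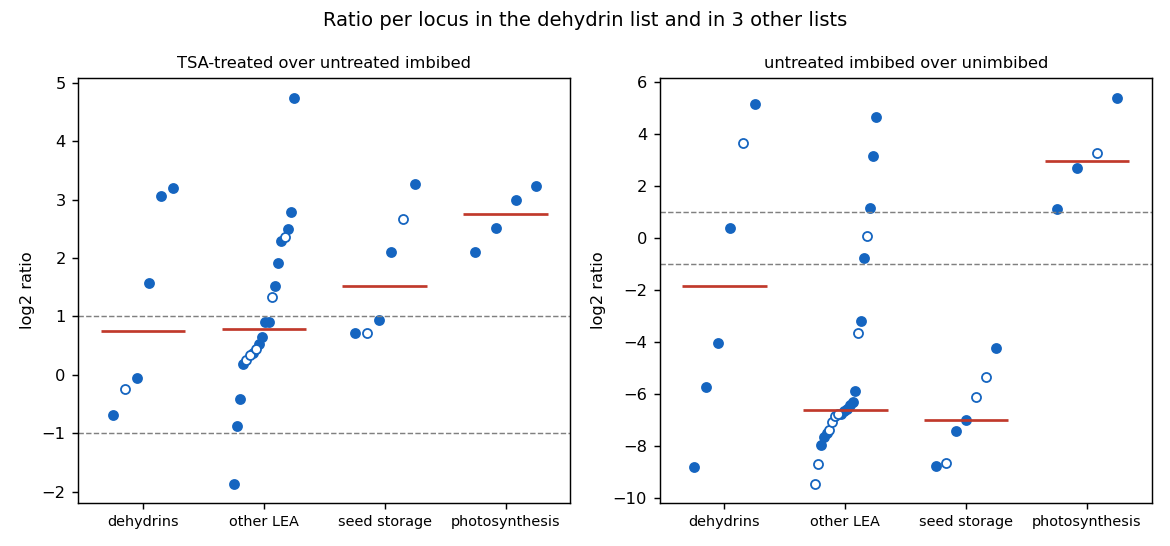
Log2 ratio of each measured locus in the dehydrin list, the other LEA families, the seed storage and oil body markers and the photosynthesis markers, for TSA-treated over untreated and for untreated over unimbibed seed. Open points are bounds, red bars are medians and dashed lines mark 2-fold. On imbibition the dehydrins spread over both sides, from -8.78 to 5.16, while all 7 storage markers lie below and all 4 photosynthesis markers above 0.

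The probe sets most like COR47 and AT2G21490 over the 3 arrays were found by the Euclidean distance of log2 scaled signals, floor applied, among probe sets with 1 gene. Nearest to COR47 were AT4G21870 (distance 0.59), PSAN, a subunit of photosystem I (0.71), and EXO (0.77). These genes and COR47 were all under the floor in unimbibed seed, so only the arrays of imbibed seed added to these distances. AT4G21870 had 1025 in TSA-treated seed, 192.1 in untreated seed and a signal under the floor in unimbibed seed. Nearest to AT2G21490 were AT1G54870 (0.71), AT5G07330 (0.90) and the storage protein PAP85 (0.91). AT1G54870 had 88.0 in TSA-treated seed, 15.3 in untreated seed and 8839 in unimbibed seed. With 3 arrays, such likeness is a description of these values only.

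**Figure D4:**
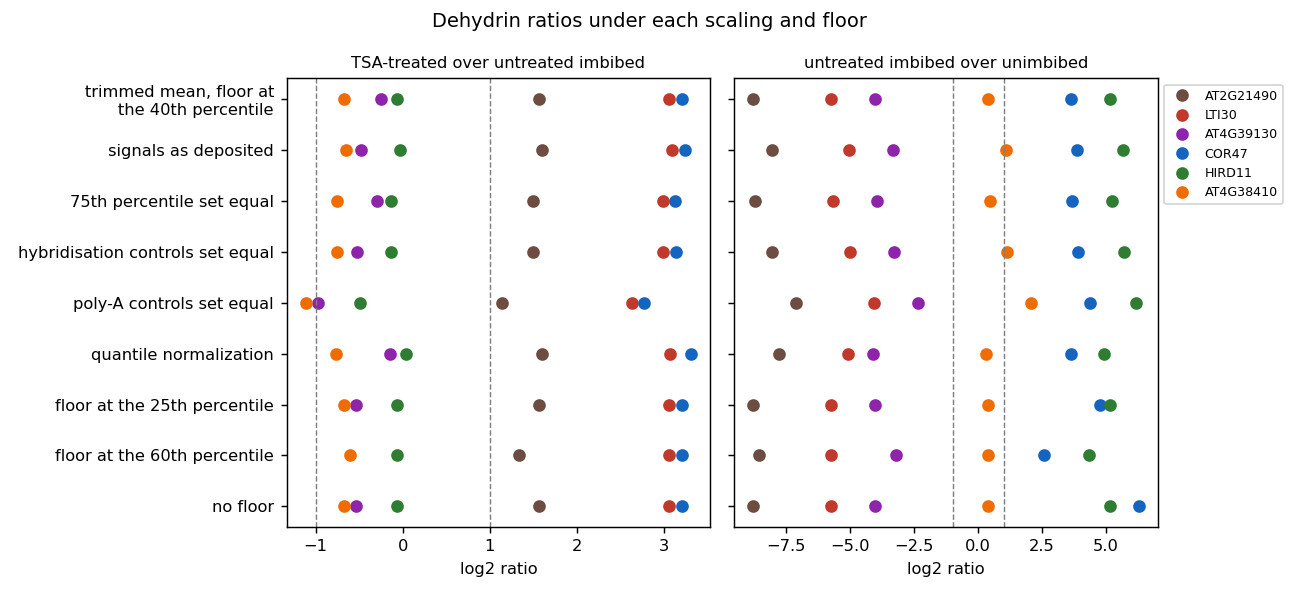
Log2 ratio of each dehydrin under each scaling and floor, for TSA-treated over untreated seed and for untreated over unimbibed seed, with dashed lines at 2-fold. COR47, LTI30 and AT2G21490 stay right of the upper line with TSA in every setting shown, the lowest being 1.13 for AT2G21490 with poly-A controls. The imbibition values of COR47 are bounds that move with the floor, except without a floor. With the floor at the 60th percentile, those of HIRD11, AT2G21490 and AT4G39130 are bounds too, and AT4G39130 has no TSA ratio. HIRD11 is also a bound on imbibition with signals as deposited and with either kind of control set equal.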

How the data were processed

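RNA of 3 seed states was hybridised to Affymetrix ATH1 arrays, 1 per state. The deposited table gives for each probe set a linear intensity, the MAS5 signal, per the submitters' processing notes. For the MAS5 version, scaling target and detection calls nothing is stated in those notes. All columns were mapped to samples by name. The table held 22810 probe sets, of which 64 controls stayed out of all counts. Arrays were scaled by factors of 0.859 (TSA-treated), 0.877 (untreated) and 1.44 (unimbibed) to a common 2% trimmed mean, floored at the 40th percentile of pooled values, and compared as log2 ratios with a call at 2-fold. The number of arrays limits the precision.

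Genes were named through the platform annotation, updated by gene identifier with the TAIR10.1 table of RefSeq genes, in which 13436 of 13513 probe sets with 1 gene matched. Coordinates are left out, since the array files name no genome build. A gene's list value is the mean over its probe sets, and a gene was measured where a signal exceeded the floor. All 6 dehydrins are described. In each other list, the rule named the 2 with the largest TSA ratio and the 2 brightest, and any further gene was named after its values were seen. The 3 nearest probe sets were named for the dehydrins with the largest TSA ratio and the lowest imbibition ratio. The members and lists were chosen with earlier results of these data known. Protein segments and promoter motifs were planned but not analysed here. Alternatives were 5 scalings, 3 floors and 2 call thresholds, run with Python 3.11.15, pandas 2.3.3 and numpy 2.4.6.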

Additional observations from a re-analysis of the deposited data

How the results depend on the processing

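All 10 alternatives kept the 2-fold call and direction of COR47 and LTI30 in the 3 comparisons. Their log2 TSA ratios were 2.77 to 3.31 and 2.63 to 3.09. AT2G21490 (1.13 to 1.60 with TSA) lost its call when 3-fold was asked. Scaling moved the median log2 ratio of probe sets whose signals both exceeded the floor by up to 1.31 for untreated over unimbibed seed and by -0.40 for TSA-treated over untreated seed, both with poly-A controls, so each direction is relative to the average transcript. Of all calls, 51.7% were higher for untreated over unimbibed seed, against 75.7% with no scaling, 76.7% with hybridisation control scaling and 92.3% with poly-A scaling. For TSA-treated over unimbibed seed the share was 50.3%, against 75.2%, 73.1% and 86.7%, and for TSA-treated over untreated seed 52.3%, against 22.4% with poly-A controls.

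For TSA-treated over untreated seed, poly-A scaling gave 1 dehydrin lower and a dehydrin median of 0.32. It gave 0 cold and 0 abscisic acid genes higher and 2 other LEA genes lower. Over all 17745 probe sets measured with that scaling, 1132 were higher and 3921 lower. A 1.5-fold call gave 1 dehydrin and 2 other LEA genes lower, and a 3-fold call 0 cold and 0 abscisic acid genes higher. Of all 15700 measured probe sets, 3362 were lower at 1.5-fold and 678 higher at 3-fold. With 75th percentile and hybridisation control scaling 0 cold genes were higher, against 1471 of 15773 and 1602 of 16701 measured probe sets. The 60th percentile floor gave a dehydrin median of 1.33, the bound of AT2G21490, with AT4G39130 no longer measured. Without a floor 3 other LEA genes were lower, and so were 4248 of all 22741 measured probe sets. For untreated over unimbibed seed, poly-A scaling gave medians of -0.16 (dehydrins) and -4.93 (other LEA), with 1 cold and 1 abscisic acid gene higher. With it, 9789 of all 17093 measured probe sets were higher. A 1.5-fold call gave 2 abscisic acid genes lower, and no floor gave 5 other LEA genes higher. For TSA-treated over unimbibed seed, the dehydrin and other LEA medians were -0.75 and -3.97 as deposited, -0.82 and -4.04 under hybridisation control scaling and -0.25 and -3.46 under poly-A scaling. One abscisic acid gene was higher under each of these scalings and with a 1.5-fold call, and 1 cold gene as deposited and with poly-A controls. Poly-A scaling gave 5 other LEA genes higher and a 3-fold call 1. Beyond fewer or more probe sets passing a moved floor or threshold, the cause was not tested. No paired analysis was possible because each state had 1 array, and no replicate could be left out. Signals near the floor limit AT4G39130 after imbibition, AT2G21490 in untreated imbibed seed, COR47 and HIRD11 before imbibition, and AT4G38410 in every state.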

Other observations

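The genes next to the dehydrins on the chromosome were looked up after the dehydrin values had been seen, by their order in the RefSeq gene table, taking 2 protein-coding genes on each side. COR47 lies next to ERD10 and LTI30 next to XERO1, and neither of those partners had a probe set of its own. Outside the dehydrin list, the 6 measured dehydrins had 22 such neighbours, among which 10 were paired with an own probe set and 6 were measured in the imbibed states. With TSA 0 of the 6 rose and 1 fell, against 10.4% higher and 9.51% lower over all measured probe sets, so these counts are near the background. The log2 ratios ran from -1.37 to 0.30 with a median of -0.58. Those of AT1G54440 and AT2G21510 were bounds, since both were above the floor only without TSA and could not have risen. The 1 that fell was AT1G20430, the gene on the other side of COR47. It had a signal of 40.4 in TSA-treated seed and 104.4 in untreated seed, a log2 ratio of -1.37. The next gene, AT1G20410, had 14.2 in TSA-treated seed and 23.1 in untreated seed (-0.70). Of the 4 genes around LTI30, none was measured in the imbibed states.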
